A study of Mus musculus with 6 samples.

Results

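The 10 genes described here encode Notch receptors (Notch1, Notch2, Notch3, Notch4), Notch ligands (Jag1, Jag2, Dll1) and transcription factors switched on by Notch signalling (Hes1, Hey1, Hey2). They were chosen by gene symbol, and all 10 are among the 23478 genes of the deposited count table and passed the filter on low counts. The table covers 6 RNA-seq libraries of sorted mouse tracheal cells (embryonic day 13.5), of which 3 hold muscle and 3 epithelium. Every library came from mice with the genotype Bmp4 f/f and gamma SMA eGFP, in which Bmp4 is flanked by loxP sites and a green fluorescent protein reports gamma smooth muscle actin. The titles call all 6 libraries controls, and no Cre driver is named. Cells were sorted by flow cytometry after staining with an antibody to Epcam, a surface protein of epithelial cells. The file header names GFP for the muscle libraries and APC, the dye of that antibody, for the epithelial ones. The labels do not say how many embryos entered a library or that replicates came from separate embryos. The p-values therefore measure the spread between these libraries, which may be technical.

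Notch receptors are transmembrane proteins that are cut when a ligand of the Jagged or Delta family on a neighbouring cell binds them. The freed intracellular part enters the nucleus, joins the DNA-binding protein RBPJ and a Mastermind protein, and activates genes of the Hes and Hey families, which encode transcriptional repressors. In airway epithelium the pathway is known for the choice between secretory, ciliated and neuroendocrine fates, and in vessel walls for the differentiation of smooth muscle, where JAG1 and NOTCH3 take part.

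Libraries held between 11847432 and 54848820 counts. The markers of each gate separated the populations: all 10 smooth muscle markers were higher in muscle and all 10 epithelial markers higher in epithelium. Summed over the 10 smooth muscle markers, the level was 16894, 4132 and 17827 on the counts-per-million scale (CPM) in muscle replicates 1 to 3, so muscle replicate 2 stood below the others. Muscle replicate 2 and epithelium replicates 2 and 3 also carried counts in 73.4% to 78.8% of 1449 odorant and pheromone receptor genes, whose products belong to the nose, against 2.9% to 17.4% in the remaining 3 libraries. Such counts averaged 0.53, 0.977 and 0.41 CPM per receptor gene in muscle replicate 2 and epithelium replicates 2 and 3, and they bear on the Notch genes of low level.

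Among the 10 genes, muscle and epithelium differed most in Hey2 and Jag1. Jag1 was 8.3-fold higher in muscle, Hey2 22.1-fold and Notch1 2.49-fold, each past an adjusted p of 0.05 in edgeR's quasi-likelihood test. Jag2 had more in every epithelial library than in any muscle library, with a log2 fold change of -2.33 that did not pass (adjusted p = 0.075). Of the 10 genes, 3 were thus called higher in muscle, where 6.58% of all 19375 tested genes were, and 0 in epithelium, where 4.11% were. At an unadjusted p under 0.05 the counts were 4 in muscle (13.5% of all tested genes) and 1 in epithelium (8.18%). DESeq2 called 4 in muscle, beside 13.5% of the genes to which it gave an adjusted p, and 1 in epithelium, beside 10.9%. With limma-voom the counts were also 4 and 1, beside 8.22% and 4.62% of all tested genes. No overlap between groups was seen for 5 genes with muscle above epithelium (16.4% of all tested genes) and for 1 with epithelium above muscle (10.5%). The median log2 fold change of the 10 genes was 0.41, that of all tested genes -0.10. Fold changes are muscle over epithelium, from a model fitted across all genes. Whether a difference reflects fewer cells with the transcript or less of it per cell cannot be told apart in sorted bulk samples.

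**Figure D1:**
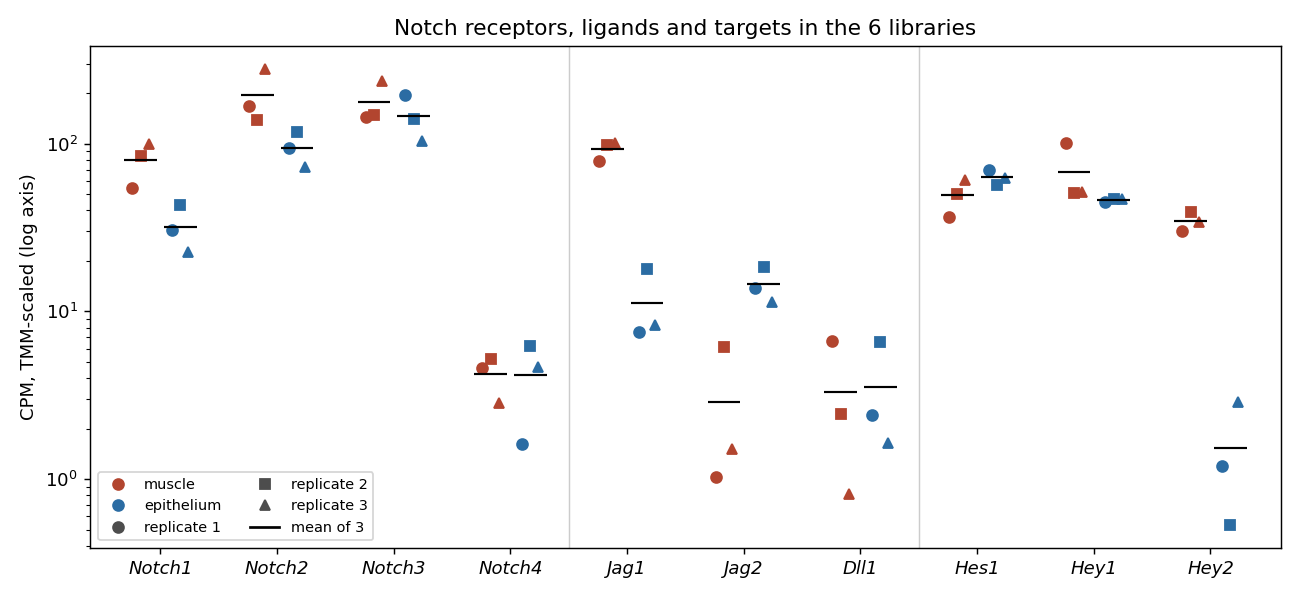
CPM (vertical log axis, scaled by trimmed mean of M-values) of the 10 Notch genes in each library, with muscle in red, epithelium in blue, a marker shape per replicate and a black line at the mean of 3 libraries. Jag1 and Hey2 show the widest gaps with muscle above, Jag2 lies lower in all 3 muscle libraries, and the points of Notch3, Notch4, Dll1 and Hes1 intermix.

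Among the receptors, Notch1 was the gene that passed the test. Notch1 encodes a widely expressed receptor. Muscle replicates 1 to 3 had 54.4, 84.3 and 99.6 CPM, and the epithelial libraries, in the same order, had 30.4, 42.9 and 22.6 CPM. Every muscle library lay above every epithelial one, although the lowest muscle and the highest epithelial library were close. Its log2 fold change was 1.31 ± 0.32 (SE, n = 3 per group, adjusted p = 0.032). Of 19 alternative fits the call was lost in 7. These were the fits with library size only (adjusted p = 0.13), with upper-quartile factors (0.085) and with relative log expression factors (0.067), those without muscle replicate 3 (0.10), epithelium replicate 1 (0.070) or epithelium replicate 3 (0.17), and the one on the 3 libraries with few receptor counts (0.13). Its log2 fold change kept its sign, from 1.01 to 1.54. Measured from the median of all genes, which moved from -0.10 to -0.33 with library size only, Notch1 stood at 1.41 with the main scaling and 1.37 with library size only. A change of scaling moves all genes nearly alike, so these values do not bear on the lost calls.

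Notch2, a receptor with wide expression in epithelia and mesenchyme, had 169, 138 and 280 CPM in muscle and 93.8, 117 and 73.0 CPM in epithelium. Muscle replicate 3 was the highest library, and the groups did not overlap. Its log2 fold change of 1.05 ± 0.32 (95% interval 0.32 to 1.78) missed the threshold at an adjusted p of 0.076, and 4 of 19 alternative fits called it, among them DESeq2 (0.023) and the fit without muscle replicate 2 (0.025).

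Notch3 is best known as the receptor of vascular smooth muscle and pericytes. It had 145, 149 and 237 CPM in muscle and 194, 141 and 104 CPM in epithelium. The groups overlapped, and the highest epithelial library was above muscle replicates 1 and 2. Fitted across groups, the log2 fold change was 0.27 ± 0.31, with a 95% interval from -0.43 to 0.97 and an adjusted p of 0.82, and its sign turned without epithelium replicate 3 (-0.05) and on the 3 libraries with few receptor counts (-0.21).

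Notch4, a receptor known from endothelium, was low. It had 4.6, 5.19 and 2.83 CPM in muscle and 1.62, 6.2 and 4.65 CPM in epithelium, from 87 to 124 counts per library. The groups overlapped, with a log2 fold change of 0.02 ± 0.82 and a 95% interval from -1.83 to 1.87, which takes in differences in both directions. The highest level was in epithelium replicate 2, the library with the highest mean receptor background.

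**Figure D2:**
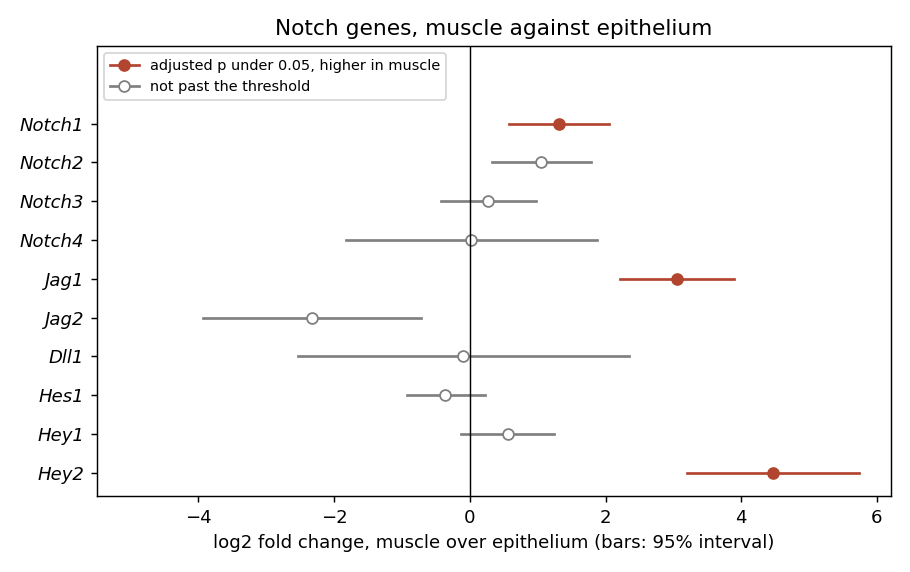
Log2 fold change of muscle over epithelium (horizontal axis) for each of the 10 genes, with its 95% interval from edgeR as a bar and filled red points for genes past the threshold. The intervals of Notch1, Jag1 and Hey2 lie right of 0, those of Notch2 (right of 0) and Jag2 (left of 0) exclude it without passing the adjusted threshold, and those of Notch4 and Dll1 are the widest.

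Of the ligands, Jag1 passed the test. Jag1, a transmembrane Jagged ligand, had 78.6, 98.2 and 101 CPM in muscle and 7.53, 17.9 and 8.29 CPM in epithelium. The muscle libraries lay close together, and the highest epithelial library, replicate 2, stayed far below the lowest muscle library. Jag1 had a log2 fold change of 3.05 ± 0.37 (SE, n = 3 per group, 95% interval 2.21 to 3.89, adjusted p = 0.0013). Jag1 kept its call in all 19 alternative fits, with log2 fold changes from 2.76 to 3.51.

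Jag2, the other Jagged ligand, had 1.03, 6.13 and 1.52 CPM in muscle and 13.7, 18.4 and 11.3 CPM in epithelium. Muscle replicate 2 was the muscle library nearest to epithelium, and muscle replicates 1 and 3 held 27 and 60 counts. For Jag2 the log2 fold change was -2.33 ± 0.71 (95% interval -3.93 to -0.72, adjusted p = 0.075). Of the fits without 1 library, the one without muscle replicate 2 moved the value most, to -3.49 (adjusted p = 0.0027). Without muscle replicate 1 it was -1.91. In all, 8 of 19 alternative fits called Jag2 higher in epithelium, among them DESeq2 (0.020) and limma-voom (0.022) on all 6 libraries. Muscle replicate 2 carried the receptor counts named above at a mean of 0.53 CPM per gene, and their part in its Jag2 value was not tested.

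Dll1, a Delta ligand active in many progenitor tissues, had 6.69, 2.44 and 0.809 CPM in muscle and 2.4, 6.6 and 1.65 CPM in epithelium. The highest library of each group was about equal to that of the other, and the spread within muscle exceeded any gap between groups. Its log2 fold change of -0.10 ± 1.08 (95% interval -2.53 to 2.34, adjusted p = 0.99) changed sign with the setting.

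The ratio of Jag1 to Jag2 counts within a library does not depend on scaling between libraries. Muscle replicates 1 to 3 had ratios of 76.6, 16.0 and 66.5, and the epithelial replicates had 0.55, 0.971 and 0.737. Jag1 counts thus exceeded Jag2 counts in every muscle library and fell short of them in every epithelial one. On the log2 scale the means were 5.44 ± 1.25 (SD, n = 3) and -0.45 ± 0.41. These ratios do not allow for length, and the annotated exons span 5.83 kb in Jag1 and 6.96 kb in Jag2. In CPM per kilobase of exons, Jag1 lay above Jag2 in epithelium replicate 2 (3.07 against 2.64). It lay below Jag2 in epithelium replicates 1 (1.29 against 1.96) and 3 (1.42 against 1.62). The ratio of Notch3 to Notch1 counts also separated the groups, with 2.66, 1.77 and 2.37 in muscle and 6.39, 3.29 and 4.63 in epithelium. That of Notch2 to Notch1 did not, with 3.1, 1.64 and 2.81 in muscle and 3.08, 2.72 and 3.23 in epithelium. With 3 libraries a group an exact permutation test of such a ratio cannot give a p under 0.10, so none was made.

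**Figure D3:**
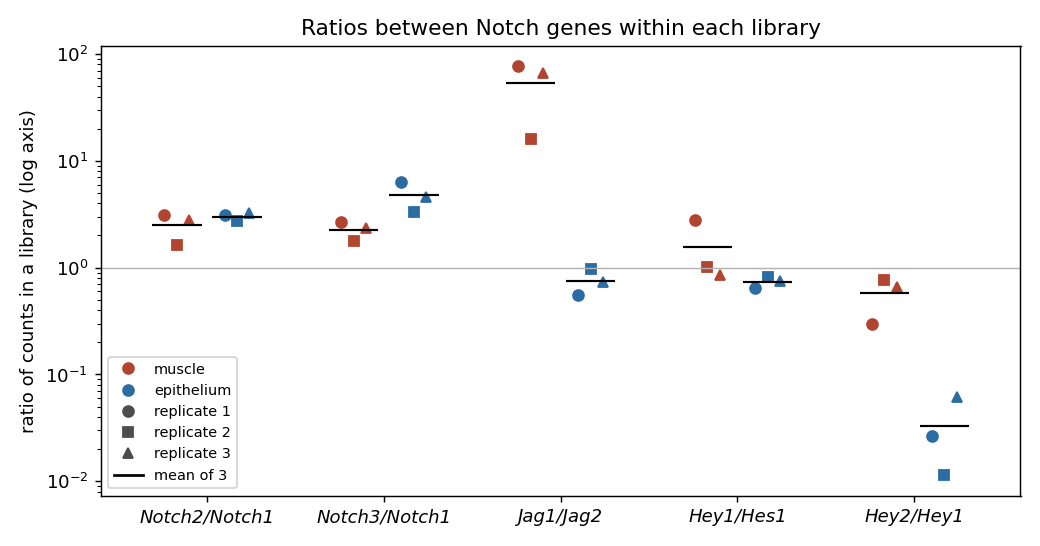
Ratio of the counts of 2 Notch genes within each library (vertical log axis, grey line at 1), with muscle in red, epithelium in blue and a black line at the mean of 3 libraries. The Jag1 to Jag2 ratio lies between 16.0 and 76.6 in muscle and between 0.55 and 0.971 in epithelium, and the Hey2 to Hey1 ratio is also apart in every library.

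Of the 3 targets, Hey2 passed the test. Hey2, a repressor known from heart and artery development, had 30.2, 39.2 and 34.3 CPM in muscle and 1.19, 0.533 and 2.89 CPM in epithelium. The muscle libraries agreed closely, and muscle replicate 2 was the highest of them although it held the least of the smooth muscle markers. In epithelium Hey2 rested on 64, 8 and 77 counts, and in epithelium replicate 2 it lay under the mean of the receptor genes (0.977 CPM), so it was not distinguishable from background in that library. Hey2 had a log2 fold change of 4.47 ± 0.56 (SE, n = 3 per group, 95% interval 3.20 to 5.74, adjusted p = 0.0015). All 19 alternative fits kept the call, with log2 fold changes from 3.93 to 5.13.

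Hes1, the Hes family repressor most often read as a sign of Notch activity, had 36.6, 50.3 and 61.1 CPM in muscle and 70.1, 56.7 and 62.4 CPM in epithelium. Muscle replicate 3 lay within the epithelial range and muscle replicates 1 and 2 below it. The log2 fold change was -0.36 ± 0.25 (95% interval -0.93 to 0.22, adjusted p = 0.56), and no alternative fit called it.

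Hey1, which is closely related to Hey2, had 101, 50.8 and 51.7 CPM in muscle and 45.2, 46.7 and 46.7 CPM in epithelium. Muscle replicate 1 stood well above the other muscle libraries, which were only just above the epithelial ones. The log2 fold change of 0.56 ± 0.30 (95% interval -0.13 to 1.24, adjusted p = 0.37) did not pass in any of the 19 alternative fits, and without muscle replicate 1 it was 0.16. Within a library the ratio of Hey2 to Hey1 counts was 0.298, 0.773 and 0.663 in muscle and 0.0263, 0.0114 and 0.0619 in epithelium. The ratio of Hey1 to Hes1 counts was 2.78, 1.01 and 0.846 in muscle against 0.644, 0.824 and 0.748 in epithelium, groups that only just failed to overlap.

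The promoter of Hey2 is shown because, of the promoter windows searched, it was the one that held the core of the RBPJ site, the DNA element through which Notch acts. RefSeq promoter windows (build GRCm38.p6), from 250 bases before to 50 bases after the annotated start, were matched by symbol for 8 of the 10 genes, and Hes1 and Hey1 were not searched. Both strands were searched for GTGGGAA and for the shorter TGGGAA, which lies inside it. The Hey2 window, read from the minus strand, held GTGGGAA at 2 places, 1 on the promoter strand from 4 bases before the start to base 3 of the transcript, and 1 on the other strand from 207 to 201 bases before the start. None of the other 8 windows, of which Dll1 had 2, held either sequence. Among all 32851 promoter windows of the table, 6.38% held GTGGGAA and 25.6% held TGGGAA. A match is a description of letters and not a proven site, and a window without a match says nothing about binding elsewhere. The stretch at chr10:30842774-30843033 is printed 5′ to 3′ on the minus strand, from 250 bases before the start to 10 bases after it, with the GTGGGAA core, or its reverse complement, in capitals. That of Jag1 at chr2:137116511-137116770, also on the minus strand, follows for comparison, as the other member with a large call in muscle, and has no capitals since it held no match.
Hey2: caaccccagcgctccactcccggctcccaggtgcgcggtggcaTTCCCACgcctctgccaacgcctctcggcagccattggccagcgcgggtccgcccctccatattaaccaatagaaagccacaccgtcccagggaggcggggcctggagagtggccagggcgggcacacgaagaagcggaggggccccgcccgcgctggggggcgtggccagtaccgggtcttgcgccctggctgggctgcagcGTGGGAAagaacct
Jag1: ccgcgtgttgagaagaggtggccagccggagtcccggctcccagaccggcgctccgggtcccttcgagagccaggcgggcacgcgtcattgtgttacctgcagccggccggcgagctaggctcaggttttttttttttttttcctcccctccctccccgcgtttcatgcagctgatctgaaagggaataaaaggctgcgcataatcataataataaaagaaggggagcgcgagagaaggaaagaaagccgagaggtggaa

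In GENCODE M21 (GRCm38) Hey2 spans 30832359 to 30842801 of chromosome 10, Jag1 spans 137081456 to 137116644 of chromosome 2, Jag2 spans 112907819 to 112929776 of chromosome 12 and Notch1 spans 26457903 to 26516663 of chromosome 2, all on the minus strand. Exons of Jag1, Jag2, Hes1, Hey1, Hey2 and Notch4 overlap no exon of another annotated gene. Those of Notch1, Notch3 and Dll1 overlap noncoding transcripts of the opposite strand, and those of Notch2 another annotated transcript on its own strand. Since such libraries keep no strand in standard use, reads of these overlaps cannot be told apart.

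Levels of different genes were compared as CPM per kilobase of annotated exons. In muscle Hes1 had the highest mean (24.2 ± 6.05 CPM per kb, SD, n = 3), followed by Notch3 (21.9 ± 6.4), Hey1 (20.8 ± 8.88), Notch2 (18.1 ± 6.91) and Jag1 (15.9 ± 2.09). The ranges of these 5 overlapped from each gene to the next. Genes farther apart in the order could still be separate, since the lowest muscle values of Hes1 and Notch3 (both 17.9 CPM per kb) lay above the highest of Jag1 (17.3). Hey2 (7.53 ± 0.984) and Notch1 (5.58 ± 1.62) formed a lower step that overlapped with each other and not with Jag1. Dll1 (0.785 ± 0.719), Notch4 (0.522 ± 0.152) and Jag2 (0.415 ± 0.405) came last, overlapped with each other and lay below Notch1 without overlap. The most abundant receptors of muscle were thus Notch3 and Notch2 per unit of length.

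In epithelium Hes1 and Notch3 again came first. Hes1 (31.0 ± 3.31 CPM per kb) lay above Notch3 (18.1 ± 5.58) without overlap, Notch3 overlapped with Hey1 (14.1 ± 0.272), and Hey1 lay above Notch2 (8.77 ± 2.03), again without overlap. Notch1 (2.25 ± 0.721), Jag2 (2.07 ± 0.521) and Jag1 (1.93 ± 0.989) overlapped with each other. The range of Jag1 also overlapped with that of Dll1, the next gene. The lowest levels were those of Dll1 (0.841 ± 0.632), Notch4 (0.516 ± 0.289) and Hey2 (0.335 ± 0.265), the last of which had the sixth highest level in muscle.

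**Figure D4:**
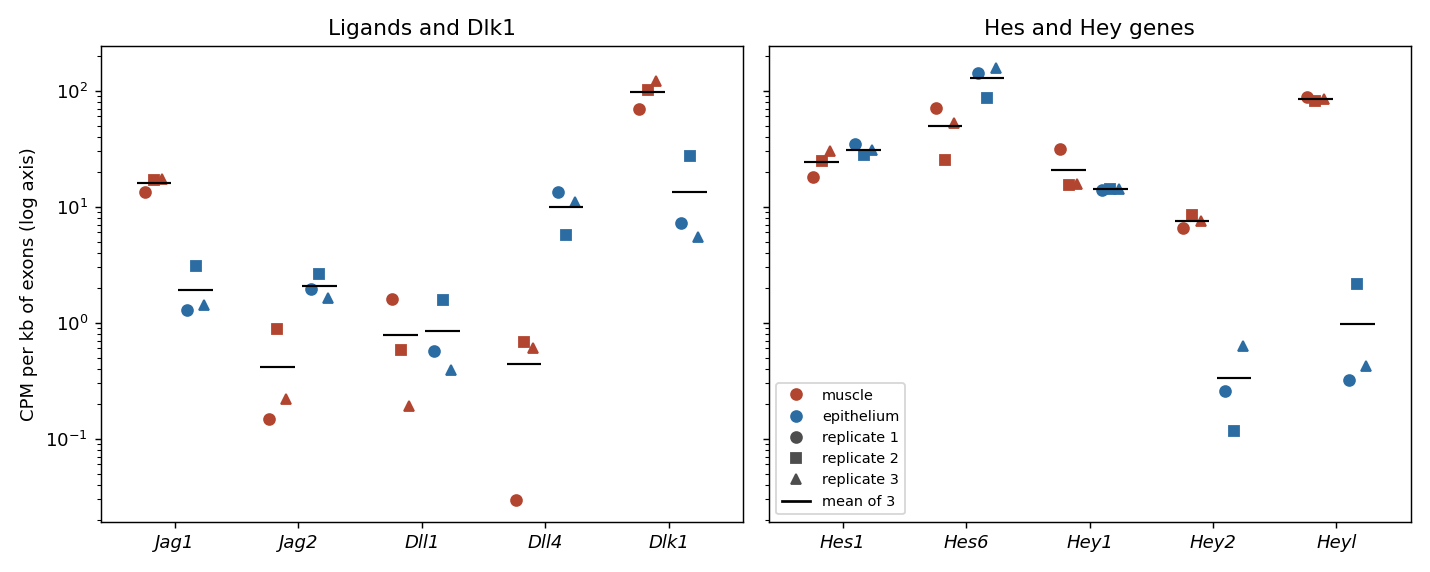
CPM per kilobase of annotated exons (vertical log axis) of ligand genes with Dlk1 (left) and of Hes and Hey genes (right), for the 3 muscle libraries in red and the 3 epithelial libraries in blue, with a black line at each mean. Heyl lies between 82.0 and 87.6 in muscle and between 0.32 and 2.16 in epithelium, Dll4 shows the opposite order, and Hes1 is at a like level in both.

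The other genes of the pathway were taken as a list of 48 genes in 7 roles, and all 48 passed the filter. Muscle had the higher level of 3 and epithelium of 4, which is 6.25% and 8.33% of the list, beside 6.58% and 4.11% of all tested genes, and the median log2 fold change was 0.24. The 3 higher in muscle were Heyl, Dlk1 and Maml2, and the 4 higher in epithelium were Dll4, Dtx4, Maml3 and Rfng. A single role holds 4 to 10 genes, so 0 or 1 call in a role is near the share over all genes and is given as a description.

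Heyl, the third member of the Hey family, had 448, 419 and 434 CPM in muscle and 1.64, 11.1 and 2.18 CPM in epithelium. The muscle libraries differed by little, and the highest epithelial value was again in replicate 2. Its log2 fold change was 6.5 ± 0.77 (SE, n = 3 per group, 95% interval 4.75 to 8.25, adjusted p = 0.0012), a 90.6-fold higher level in muscle, and all 19 alternative fits kept the call. Per kilobase Heyl (84.8 ± 2.81 CPM per kb, SD, n = 3) lay above every one of the 10 members in muscle without overlap. Hes6, a Hes family gene that counteracts Hes1 in neurogenesis, had 129, 45.4 and 95.3 CPM in muscle and 254, 157 and 286 CPM in epithelium. All 3 epithelial libraries lay above all 3 muscle libraries, with a log2 fold change of -1.37 ± 0.40 and an adjusted p of 0.063, and 12 of 19 alternative fits called Hes6 higher in epithelium. Nrarp, a feedback inhibitor of Notch, averaged 7.46 ± 2.06 CPM (SD, n = 3) across muscle libraries and 2.00 ± 1.10 across epithelial ones, with no overlap and an adjusted p of 0.18. Hes2, Hes3, Hes5 and Hes7 averaged 1.27 CPM or less in both tissues, a level that odorant and pheromone receptor genes also reached in the 3 libraries with more of their counts.

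Dll4, a Delta ligand best known from the tip cells of growing vessels, was higher in epithelium. It had 0.114, 2.64 and 2.33 CPM in muscle, from 3, 53 and 92 counts, and 51.3, 22.1 and 41.9 CPM in epithelium. The lowest epithelial library exceeded the highest muscle library by far. The log2 fold change was -4.51 ± 0.85 (SE, n = 3 per group, adjusted p = 0.010), and the call was lost with receptor counts as a covariate (adjusted p = 0.078). Exons of Dll4 overlap the antisense transcript Gm14207, which had 354, 32 and 184 counts in epithelium and 0, 4 and 4 in muscle. Dll4 itself had 2761, 332 and 1117 counts in epithelium. The part of that transcript in the Dll4 value was not tested. The 12 endothelial markers summed to 15.1, 78.8 and 37.6 CPM in epithelium replicates 1 to 3. In replicate 1, the library with the most Dll4, 4 of them (Cdh5, Emcn, Sox17, Tie1) had 0 counts and Egfl7 alone had 12.2 CPM, the highest epithelial value of that gene. The part of endothelial cells in the Dll4 value was not tested. Per kilobase Dll4 (9.98 ± 3.87 CPM per kb, SD, n = 3) lay above Jag1, Jag2 and Dll1 in epithelium without overlap with their ranges.

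Dlk1, a Delta-like protein without the domain that binds Notch in the classical ligands and a paternally expressed growth gene, had 391, 571 and 679 CPM in muscle and 41.1, 153 and 31.2 CPM in epithelium. The epithelial library nearest to muscle was replicate 2. Fitted over all libraries, the log2 fold change of Dlk1 was 2.86 ± 0.59 (adjusted p = 0.015), and the call was lost with library size only (0.059) and with receptor counts as a covariate (0.0504). Dll3 and Dlk2 did not pass, with adjusted p of 0.95 and 0.37.

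Of 5 genes for enzymes that modify Notch with sugars, 0 were higher in muscle and 1, Rfng, in epithelium, beside 6.58% and 4.11% of all tested genes. Fringe enzymes of the Rfng, Lfng and Mfng genes lengthen a fucose on the receptor and so tune its response to Delta and Jagged ligands. Rfng had 18.0, 11.9 and 24.4 CPM in muscle and 58.9, 57.0 and 34.9 CPM in epithelium, a log2 fold change of -1.47 ± 0.33 (SE, n = 3 per group, adjusted p = 0.022). Its call was lost without muscle replicate 1 (0.071) and with only the replicates numbered 1 and 3 (0.058). Lfng averaged 1.03 ± 0.169 CPM (SD, n = 3) across muscle libraries and 5.17 ± 1.88 across epithelial ones, and Mfng 0.663 ± 0.442 and 5.57 ± 4.34 with overlapping groups. Their log2 fold changes of -2.33 and -3.06 had an adjusted p of 0.19 each in edgeR. DESeq2 called 0 genes of this role in muscle and 3 in epithelium, beside 13.5% and 10.9% of all genes with its adjusted p. Unadjusted p-values under 0.05 in edgeR numbered 0 in muscle and 3 in epithelium, beside 13.5% and 8.18% of all tested genes. Pofut1 and Poglut1, which attach the first sugars, overlapped between groups.

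Of 10 genes of receptor cleavage, 0 passed in either direction in edgeR, DESeq2 or limma-voom. In muscle 1 had an unadjusted p under 0.05 in edgeR, beside 13.5% of all tested genes. With 6.58% and 4.11% of all tested genes called in muscle and epithelium in edgeR, a count of 0 among 10 is near that share. The shares were 8.22% and 4.62% in limma-voom. In DESeq2 they were 13.5% and 10.9% of the genes to which it gave an adjusted p. Adam10, the protease that makes the ligand-induced cut, averaged 127 ± 33.4 CPM (SD, n = 3) across muscle libraries and 128 ± 8.23 across epithelial ones, with a 95% interval of the log2 fold change from -0.60 to 0.57. For Ncstn, which encodes the gamma-secretase subunit nicastrin, that interval ran from -0.47 to 0.81. The 4 genes of ligand ubiquitination, which readies ligands for pulling on the receptor, gave 0 calls in either direction in edgeR and DESeq2. In muscle limma-voom called 1, beside 8.22% of all tested genes. At an unadjusted p under 0.05 in edgeR there were 2 in muscle, beside 13.5% of all tested genes.

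In the nuclear complex the Mastermind genes went opposite ways. Mastermind proteins are the coactivators that join RBPJ and the cut receptor. Maml2 had 58.2, 61.3 and 74.1 CPM in muscle and 22.4, 35.1 and 27.6 CPM in epithelium, a log2 fold change of 1.19 ± 0.25 (SE, n = 3 per group, adjusted p = 0.017). Its call was lost in 5 of 19 alternative fits, namely with library size only (0.086) or upper-quartile factors (0.053) and without muscle replicate 3 (0.061), epithelium replicate 1 (0.073) or epithelium replicate 3 (0.097). Maml3 had 16.8, 15.8 and 19.4 CPM in muscle and 66.8, 35.3 and 41.0 CPM in epithelium. Its log2 fold change of -1.46 ± 0.29 (adjusted p = 0.013) was called in all 19 alternative fits. Maml1 had 15.7 ± 4.81 CPM (SD, n = 3) and 14.2 ± 1.30, a difference within the spread. Rbpj itself had 77.2, 53.0 and 82.4 CPM in muscle and 60.3, 46.9 and 47.5 CPM in epithelium, with overlapping groups, a 95% interval from -0.11 to 1.03 and an adjusted p of 0.38.

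Of 8 genes for turnover and inhibition of the receptor, 0 were higher in muscle and 1, Dtx4, in epithelium, beside 6.58% and 4.11% of all tested genes. In muscle 2 had an unadjusted p under 0.05 in edgeR, beside 13.5% of all tested genes. DESeq2 and limma-voom each called 0 in muscle and 1 in epithelium. The shares were 13.5% and 10.9% of all genes with an adjusted p in DESeq2. In limma-voom they were 8.22% and 4.62% of all tested genes. Dtx4 encodes a Deltex ubiquitin ligase. It had 9.88, 14.0 and 11 CPM in muscle and 57.6, 28.5 and 32.5 CPM in epithelium, a log2 fold change of -1.77 ± 0.33 (SE, n = 3 per group, adjusted p = 0.0090), and was called in all 19 alternative fits. Numb, a Notch inhibitor that dividing progenitors can share out unequally, averaged 60.7 ± 19 CPM (SD, n = 3) across muscle libraries and 82.8 ± 14.5 across epithelial ones, with overlapping groups.

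**Figure D5:**
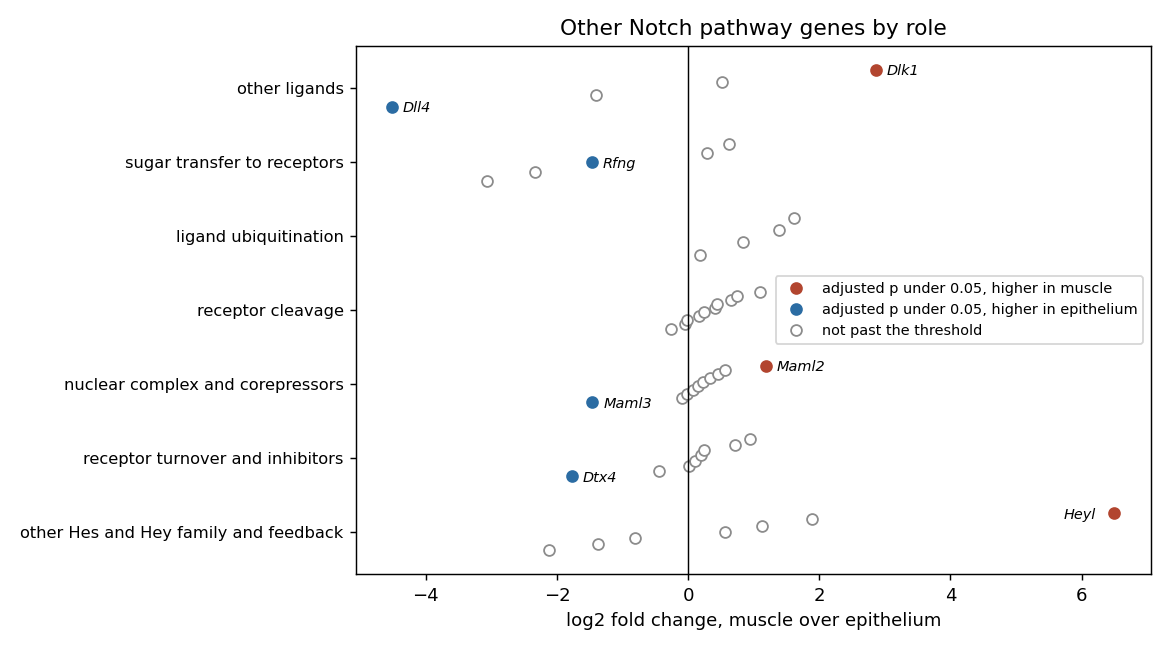
Log2 fold change of muscle over epithelium (horizontal axis) of the 48 other pathway genes, 1 point each, in rows by role, with filled points past the threshold (red higher in muscle, blue higher in epithelium). Heyl at 6.5 and Dll4 at -4.51 are the extremes, and the 10 receptor cleavage genes lie between -0.26 and 1.10.

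Several of these genes are also known from vessels, so the marker lists of other cell types were set beside them. Of all tested genes 6.58% were called higher in muscle and 4.11% higher in epithelium. Higd1b of the pericyte list, Foxd3 of the neural list and Scgb1a1 of the secretory list did not pass the filter and were not tested. Of 12 endothelial genes, 1 (Esam) was higher in muscle, and the summed level was 77.0 to 117 CPM in muscle and 15.1 to 78.8 CPM in epithelium. Muscle replicate 1 had 77.0 CPM of that list, of which Tek gave 34.6 CPM, its highest value in any library, and Esam 28.8 CPM. Of the other 10 genes Egfl7 (7.56 CPM), Kdr (3.69 CPM), Sox18 (0.988 CPM) and Pecam1 (0.836 CPM) were the highest there. Sox17 had 5 counts, Plvap 4, Cdh5 2 and Emcn 1, and Tie1 and Cldn5 had 0. Jag1 had 78.6 CPM, Hey2 30.2 CPM and Heyl 448 CPM in that library. Of the 3 muscle libraries that one was the lowest for Jag1 and Hey2 and the highest for Heyl. Of 6 genes of pericytes and vascular muscle, 3 (Rgs5, Cspg4, Mcam) were higher in muscle, with a summed level of 453 to 658 CPM in muscle and 17.9 to 80.4 CPM in epithelium. Muscle replicate 2, with the least of the smooth muscle markers, had 634 CPM of that list, together with 98.2 CPM of Jag1, 39.2 CPM of Hey2 and 419 CPM of Heyl. Muscle replicate 3, with the most of the smooth muscle markers, had 658 CPM of it, with 101 CPM of Jag1, 34.3 CPM of Hey2 and 434 CPM of Heyl. Airway and vascular muscle share much of that list, and the part of mural cells in the Notch values was not tested. Of 9 markers of neuroendocrine, basal, secretory and ciliated epithelium, 2 were higher in epithelium, with a sum of 68.1 to 115 CPM there and 18.9 to 31.4 CPM in muscle. Of 8 cartilage markers 4 were higher in muscle, with a sum of 1000 to 1650 CPM there and 268 to 636 CPM in epithelium. Of 10 neural and glial markers 1 was higher in epithelium. It was Erbb3, a receptor that epithelia also express, with 118, 65.2 and 87.8 CPM of a sum of 133 to 153 CPM in epithelium, where muscle had a sum of 44.1 to 85.9 CPM. Of 6 mesothelial markers 1 was higher in epithelium. It was Krt19, a keratin of epithelium itself, which made up 154, 390 and 222 CPM of sums of 171, 407 and 235 CPM in epithelium replicates 1 to 3, where muscle had sums of 3.53 to 18.9 CPM. Immune markers summed to 3.57 to 59.4 CPM over the muscle libraries and 4.39 to 58.1 CPM over the epithelial ones. The part of these other cells in the Notch values was not tested.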

How the data were processed

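RNA of sorted cells was turned into cDNA with SMART-Seq v4 and into libraries with Nextera XT, per the labels' protocols. The authors deposited raw counts per gene symbol. Trim Galore, Bowtie2, Cufflinks, DESeq and the build mm10 are named, without versions or roles, in the submitters' processing notes, and the counting program and annotation are not given in the sources used here. Of counts from 1 to 19, 73.8% to 79.6% per library were even, so both mates of a pair may have been counted. There are no molecular identifiers.

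Analysis used R 4.3.3 on the unchanged counts. After a filter on low counts (filterByExpr), libraries were scaled by TMM and compared with the robust quasi-likelihood test of edgeR 4.0.16 (two-sided, no covariate), with Benjamini-Hochberg adjustment over 19375 genes and a threshold of 0.05. SEs and 95% intervals derive from that test. CPM used TMM-scaled totals. Exon lengths came from GENCODE M21. The edgeR fit alone was checked on simulated counts, with the same spread set for all genes and no library set apart, unlike these data. Alternatives (DESeq2 1.42.0, limma 3.58.1, other scalings and filters, and libraries left out) are in the closing section. Named were the 10 members, the pathway genes past the threshold and Rbpj. Hes6, Nrarp and others named beside them were chosen after their values were seen. The members and lists were chosen with earlier results of these data known. 1 marker was matched by a synonym.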

Additional observations from a re-analysis of the deposited data

How the results depend on the processing

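Jag1, Hey2, Heyl, Dtx4 and Maml3 kept direction and call in all 19 alternative fits. The 3 members called higher in muscle numbered 2 to 4 over the fits without 1 library. The count of members higher in epithelium, 0 as reported, was 1 (Jag2) with DESeq2, with limma-voom, with the replicate block, with a header identifier as a term, with only the replicates numbered 1 and 3, with receptor counts as a covariate and on the 3 libraries with few receptor counts, and 0 to 1 when a library was left out. Of the other pathway genes, those higher in muscle numbered 1 with library size only, 5 with the replicate block, 5 with the header identifier, 1 at an adjusted p under 0.01 and 2 to 6 (the highest without muscle replicate 2) with a library left out. Over all 19375 tested genes, 1274 were higher in muscle in the main fit and 1041 with library size only. There were 1602 with the replicate block and 2054 with the header identifier. Without muscle replicate 2 there were 1655 among 20064 tested. Other pathway genes higher in epithelium numbered 8 with DESeq2, beside 10.9% of all genes with its adjusted p, and 1 at an adjusted p under 0.01. Over all tested genes, 797 were higher in epithelium in the main fit, 816 with the replicate block and 1124 with the header identifier. Over all genes 2071 were called, and 3531 with DESeq2, 3178 with the header identifier, 983 at an adjusted p under 0.01 and 1169 (without epithelium replicate 3) to 2573 (without muscle replicate 2) with a library left out, with 1323 without muscle replicate 1. Among called genes 61.5% were higher in muscle, and 42.0% with library size only.

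Signs turned in 3 of the 10 members and in 16 of the 48 other pathway genes, and none of them was called. Notch3 was -0.21 on the 3 libraries with few receptor counts and -0.05 to 0.55 without 1 library. Notch4 was -0.09 with DESeq2 and with relative log expression factors, -0.26 with library size only, -0.13 with upper-quartile factors, -0.02 with at least 1 CPM in 3 libraries, -0.01 with counts halved and -0.35 to 0.43 without 1 library. Dll1 was 0.15 with the header identifier, 0.81 with only the replicates numbered 1 and 3, 0.09 with receptor counts as a covariate, 0.46 on the 3 libraries with few receptor counts and -1.11 to 0.63 without 1 library. The cause was not tested. The fit on those 3 libraries was added after the data were seen and has a lone epithelial library, assumed to vary like muscle.

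The labels do not say that a replicate number marks a shared animal or day, so the numbers were not taken to pair libraries. Deviations of same-numbered libraries from their group means had correlations over 19375 genes of 0.57, 0.66 and -0.42 for numbers 1 to 3. Over the 4123 genes whose mean log2 CPM reached 6 they were 0.18, 0.16 and -0.18. With 3 libraries a group such correlations cannot settle whether libraries are paired. The header identifier has the form of a date, is shared by the replicates numbered 2 of both tissues and differs from that of the others, and its meaning is not stated. With it as a term Jag2 was called (adjusted p = 0.016). With the replicate block the log2 fold change was 3.15 for Jag1. The calls of Dll4 (adjusted p = 0.062) and Rfng (0.056) were lost. Depth limits Notch4 and Dll1 in both tissues (32 to 176 counts per library), Jag2 in muscle and Hey2 in epithelium.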
